A study of Mus musculus with 16 samples.

Results

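The secreted modulators of Wnt signalling described here are 8 genes: the secreted frizzled-related proteins Sfrp1, Sfrp2, Sfrp4, Sfrp5 and Frzb, the Dickkopf family member Dkk3, the Wnt inhibitory factor Wif1 and the ligand Wnt5a. They were found by name among the non-control probes of a one-colour mouse array, which gave 9 of 41174 probes, with a pair of probes for Sfrp1 and 1 for each other gene. RNA was from a mid-ventricular section of the left ventricle of 16 C57BL/6 N mice, in 4 groups of 4 arrays with 2 males and 2 females each. NOS3-TG mice expressed a nitric oxide synthase 3 (Nos3) transgene driven in cardiomyocytes by the alpha-myosin heavy chain promoter. WT mice were their wild-type littermates. The groups were NOS3-TG after 10 weeks of transverse aortic constriction (TAC, an operation that narrows the aortic arch and so loads the ventricle with pressure), NOS3-TG at baseline (left intact), WT after 10 weeks of TAC and WT at baseline. All groups shared the strain background, and the sources used here give neither ages nor a sham-operated group.

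Wnt proteins are secreted lipid-modified ligands that bind Frizzled receptors, with LRP5 or LRP6 as coreceptors for the branch that stabilises beta-catenin. Secreted frizzled-related proteins carry a domain like the ligand-binding part of Frizzled and bind Wnt proteins outside the cell, as does Wif1 through a domain of its own. Dickkopf proteins block the LRP coreceptors, although Dkk3 is a divergent member for which that role is not settled. In the heart, mesenchymal cells such as fibroblasts are a known source of several of these proteins, and the pathway is quiet in most adult muscle cells and is known to be drawn on in repair and scarring.

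The RefSeq promoter table (build GRCm38.p6) held 4 of the 8 genes. The Sfrp2 window lay inside the gene's own RefSeq span and is not printed. For the other 3, the 250 bases before the gene's start are printed to show the sequence upstream of genes whose signals are set side by side below. Each runs 5′ to 3′ on the gene's own strand, in lower case, with capitals on matches to 4 short motifs searched on both strands.
Sfrp5, chr19:42202253-42202502, minus strand: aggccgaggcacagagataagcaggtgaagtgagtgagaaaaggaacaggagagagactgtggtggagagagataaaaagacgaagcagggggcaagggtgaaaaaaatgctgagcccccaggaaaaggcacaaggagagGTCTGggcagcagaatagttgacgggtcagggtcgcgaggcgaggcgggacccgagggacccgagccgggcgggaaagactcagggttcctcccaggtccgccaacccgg
Frzb, chr2:80447397-80447646, minus strand: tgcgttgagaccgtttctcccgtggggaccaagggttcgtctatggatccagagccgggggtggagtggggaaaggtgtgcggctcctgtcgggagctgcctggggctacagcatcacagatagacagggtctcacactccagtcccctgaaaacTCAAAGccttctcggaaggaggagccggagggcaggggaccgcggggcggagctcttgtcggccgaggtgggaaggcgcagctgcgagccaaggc
Wif1, chr10:121033754-121034003, plus strand: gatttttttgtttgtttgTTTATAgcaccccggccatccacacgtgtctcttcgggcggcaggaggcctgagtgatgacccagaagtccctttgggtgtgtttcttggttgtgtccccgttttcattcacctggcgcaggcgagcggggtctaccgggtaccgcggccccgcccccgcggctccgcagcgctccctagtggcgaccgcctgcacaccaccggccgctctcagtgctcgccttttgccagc
Frzb alone of these held CTTTGA, the core bound by TCF/LEF factors, 95 bases before its start. It lay on the strand opposite to the gene's and so is printed as TCAAAG. That core was in 13.8% of the 32851 promoters of the table. Sfrp5 held the Smad half-site CAGAC, found in 42.2% of promoters, on the strand opposite to the gene's and so printed as GTCTG. Wif1 held TATAAA, also on the strand opposite to the gene's and so printed as TTTATA, at 232 bases before its start, found in 12.4%. None of the 3 held the TEAD core GGAATG, found in 12.6%. No match overlapped another. The windows were 59.6% to 64.4% G and C, against a median of 52.4% over all promoters.

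Signal is given as a percentage of the 75th percentile of an array's processed signal, called relative signal below. Relative signals of different probes are not comparable as levels. A probe was analysed where its signal was well above background, as the scanner software flags it, on at least 4 of the 16 arrays. Differences are in log2 units, TAC minus baseline or NOS3-TG minus WT, with the standard error (SE) of a limma fit over all 16 arrays and a Benjamini-Hochberg adjusted p over the 15667 genes that passed. A gene is called at an adjusted p under 0.05. Of the 8 modulators, 6 passed: Sfrp1, Sfrp2, Sfrp5, Frzb, Dkk3 and Wif1. Sfrp4 was well above background on 3 arrays and Wnt5a on 2, so both were left out of the tests.

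The arrays matched their genotype labels at the Nos3 probe, which read 12312% to 26036% of the 75th percentile in NOS3-TG and at most 360% in WT hearts. Between 44.5% and 68.0% of probes were well above background per array, and all 15 cardiomyocyte markers passed the filter. With 4 arrays per group, the median SE of a log2 difference over all genes was 0.13. The arrays stood apart in some genes of atrial muscle. Myl7, the atrial regulatory light chain, read at least 561% on 10 arrays and at most 25.9% on the other 6. The 6 low arrays were NOS3-TG TAC replicates 2 and 4, NOS3-TG baseline replicate 3, WT TAC replicates 2 and 4 and WT baseline replicate 4. Sarcolipin (Sln) and the atrial essential light chain Myl4 were lowest on the same 6. Of 7 atrial markers, Bmp10 was not well above background on any array. Male minus female was 0.07 for Nppa, -0.04 for Nr2f2 and -0.39 for Kcna5, against 3.57 ± 1.95 for Myl7 (SE). Nppa was called higher after TAC, by 1.75 ± 0.39 in NOS3-TG and by 2.06 ± 0.39 in WT (SE). The 6 measured markers summed to 355 to 407 multiples of the 75th percentile in NOS3-TG TAC and 227 to 465 in WT TAC hearts. They summed to 63.1 to 302 in NOS3-TG baseline and 68.9 to 401 in WT baseline hearts. The sum did not separate by Myl7 in NOS3-TG TAC hearts, at 355 and 383 on the low and 374 and 407 on the high arrays. It did in WT TAC hearts, at 227 and 320 against 414 and 465. The TAC differences of Myl7, Sln and Myl4 were -3.19, -2.70 and -2.44 in NOS3-TG and -1.34, -0.79 and -0.99 in WT, none called. All 4 females after TAC were low for Myl7, and all 4 males after TAC were high. Whether the sections of the 10 high arrays held atrial or basal tissue was not tested, nor was the part of such tissue in the values of the modulators. Results are therefore also given with log2 Myl7 in the fit and on the 10 Myl7-high arrays alone, both added after the data were seen. TAC and baseline arrays were on different slides, so slide enters the TAC comparisons only as a random block. In whole tissue, fewer cells of a type and less RNA per cell cannot be told apart.

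After TAC, 3 of the 6 measured modulators changed in WT hearts and none was called in NOS3-TG hearts. In WT, Frzb and Sfrp1 rose and Sfrp5 fell, which is 3 of 6 against 28.4% of all genes called in that comparison. In NOS3-TG, 0 of 6 were called against 11.8% of all genes, and limma gave 1 of 6, Sfrp5, an unadjusted p under 0.05, against 27.8% of all genes. In WT, 4 of 6 had one, against 40.3% of all genes. That difference between genotypes was itself tested as an interaction and not called for any modulator, as given below. The median TAC difference of the 6 was 0.10 in NOS3-TG and 0.66 in WT, beside medians over all genes of -0.00 in NOS3-TG and -0.06 in WT.

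**Figure D1:**
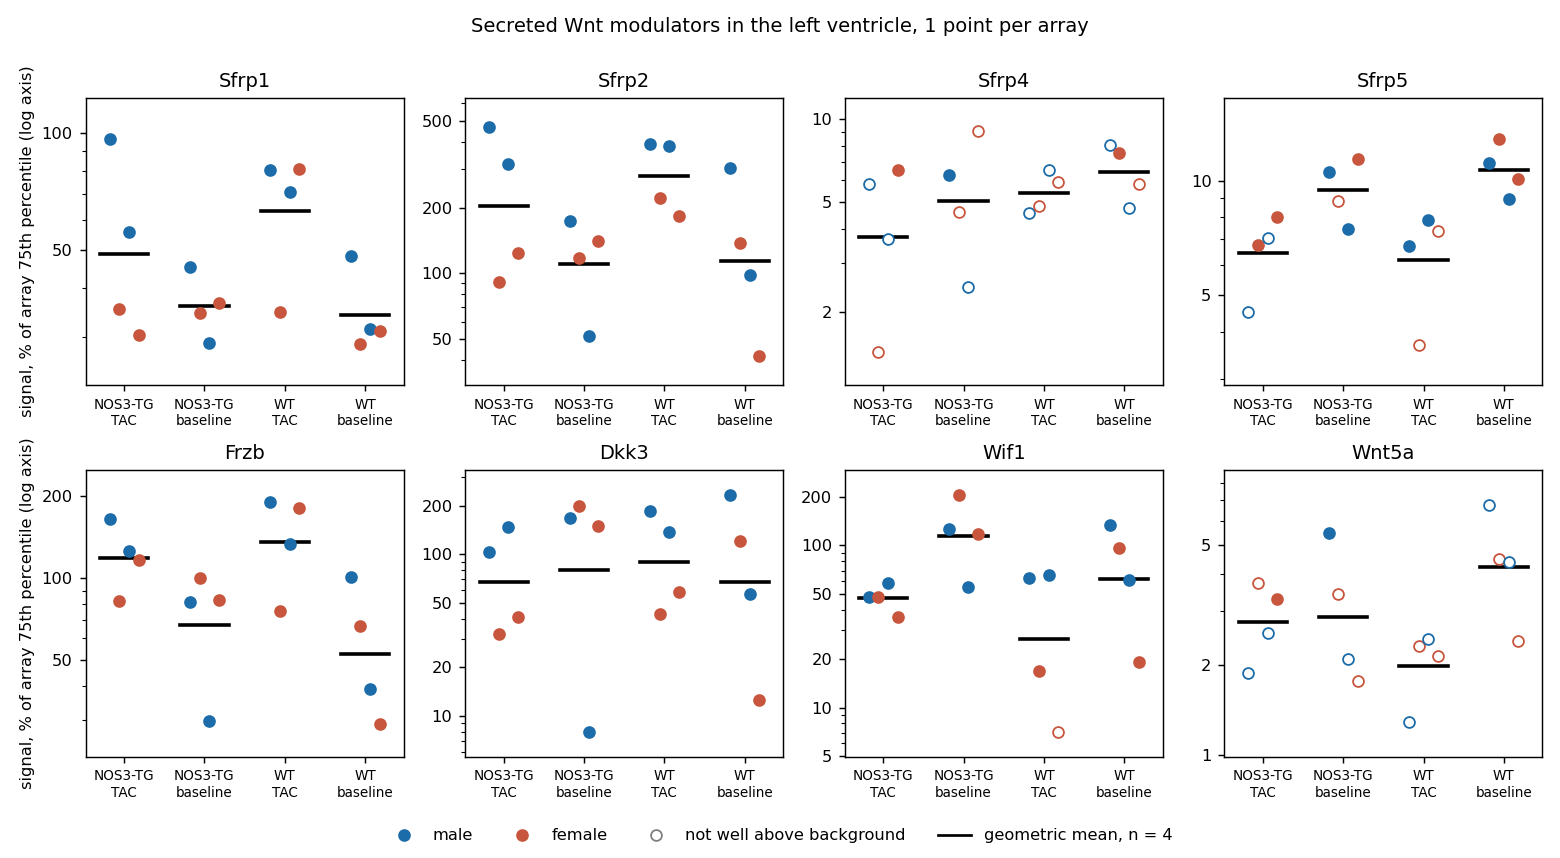
Relative signal (% of the array's 75th percentile, log axis) of the 8 modulators, 1 point per array and 4 arrays per group, with the geometric mean of each group as a bar. Open points were not well above background. Sfrp1 and Frzb sit higher after TAC than at baseline in WT hearts apart from single arrays, and Sfrp5 sits lower. Dkk3 spans 7.94% to 199% within NOS3-TG baseline and 12.5% to 235% within WT baseline, and nearly all Sfrp4 and Wnt5a points are open.

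Sfrp1, a frizzled-related protein that binds Wnt ligands outside the cell, was read by 2 probes, A_51_P352296 and A_52_P564706, placed by the array file at chr8:22232957-22233016 and chr8:22233645-22233704 of a build the sources used here do not give. The brighter probe read 96.6%, 35.3%, 55.8% and 30.3% in NOS3-TG TAC hearts, against 45.3%, 34.6%, 28.9% and 36.6% in NOS3-TG baseline hearts. It read 80.6%, 34.8%, 70.8% and 81.0% in WT TAC hearts, against 48.3%, 28.7%, 31.3% and 31.0% in WT baseline hearts. In WT, 3 of 4 TAC arrays lay above every baseline array, and replicate 2 lay inside the baseline range. The high NOS3-TG TAC arrays were the 2 males. The TAC difference was 0.45 ± 0.29 in NOS3-TG (SE, adjusted p = 0.348) and 0.89 ± 0.29 in WT (SE, adjusted p = 0.0373), a fold of 1.86. The second probe, well above background on 12 arrays, differed by 0.23 ± 0.24 in NOS3-TG and by 0.49 ± 0.24 in WT (SE), with an adjusted p of 0.139 in WT when each probe was fitted alone. The mean of both probes gave 0.69 in WT (adjusted p = 0.0606), so the Sfrp1 call rests on the brighter probe.

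Sfrp2, a frizzled-related protein known from fibroblasts and the extracellular matrix, had the probe A_51_P520849 at chr3:83878918-83878977 of the file's build. Its relative signal was 468%, 91.1%, 318% and 124% in NOS3-TG TAC hearts, against 173%, 117%, 51.8% and 141% in NOS3-TG baseline hearts. It was 393%, 222%, 383% and 183% in WT TAC hearts, against 302%, 137%, 97.7% and 41.6% in WT baseline hearts. All 4 WT TAC arrays exceeded 3 of the 4 WT baseline arrays, while replicate 1 at baseline lay among them. In both genotypes the 2 highest TAC arrays were male. The TAC differences, 0.88 ± 0.53 in NOS3-TG and 1.30 ± 0.53 in WT (SE), did not pass the test (adjusted p = 0.309 in NOS3-TG and 0.0864 in WT).

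Sfrp5, a frizzled-related protein known as a Wnt5a antagonist made by fat tissue in mice, was dim and had the probe A_51_P476169 at chr19:42092520-42092579 of the file's build. It read 4.50%, 6.76%, 7.05% and 8.02% in NOS3-TG TAC hearts, against 10.5%, 8.84%, 7.47% and 11.4% in NOS3-TG baseline hearts. It read 6.73%, 3.69%, 7.89% and 7.37% in WT TAC hearts, against 11.1%, 12.9%, 8.95% and 10.1% in WT baseline hearts. The WT groups did not overlap, with TAC lower, as was true of 17.2% of all genes. In NOS3-TG only the highest TAC array and the lowest baseline array overlapped. Sfrp5 fell by 0.79 ± 0.24 in WT (SE, adjusted p = 0.0285), and its difference in NOS3-TG was -0.55 ± 0.24 (SE, adjusted p = 0.162). The probe was well above background on 2 of 4 arrays in each TAC group, against 3 of 4 in NOS3-TG baseline and 4 of 4 in WT baseline, so the size of the fall depends on the background. With the normexp background correction the WT difference was -0.23 (adjusted p = 0.586).

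Sfrp4, a frizzled-related protein that binds Wnt ligands, lay near the detection limit. Its probe A_51_P457196 at chr13:18999998-19000057 of the file's build read 1.43% to 6.51% in NOS3-TG TAC, 2.46% to 9.03% in NOS3-TG baseline, 4.55% to 6.54% in WT TAC and 4.76% to 8.04% in WT baseline hearts. It was well above background on 1 array of each NOS3-TG group, on no WT TAC array and on 1 WT baseline array. No fold is given for Sfrp4, and these arrays set no order among the groups.

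Frzb, also called Sfrp3, is a frizzled-related protein best known from cartilage, where it restrains Wnt signalling. Its probe A_51_P286748, at chr2:80256141-80256200 of the file's build, read 165%, 82.6%, 126% and 117% in NOS3-TG TAC hearts, against 81.4%, 100.0%, 29.7% and 83.3% in NOS3-TG baseline hearts. It read 189.8%, 75.8%, 133% and 180.5% in WT TAC hearts, against 101%, 66.8%, 39.0% and 29.0% in WT baseline hearts. In each genotype 3 of 4 TAC arrays lay above all baseline arrays, and replicate 2 after TAC lay below the highest of them. Frzb rose by 1.38 ± 0.45 in WT (SE, adjusted p = 0.0379), a fold of 2.59. In NOS3-TG the difference was 0.83 ± 0.45 (SE, adjusted p = 0.253), with a 95% interval of -0.15 to 1.81.

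Dkk3, the divergent Dickkopf protein, varied most of the 6 between arrays in each baseline group. After TAC its log2 SD was 1.05 in NOS3-TG, against 1.11 for Sfrp2, and 1.01 in WT, against 1.57 for Wif1. The Dkk3 probe A_52_P220176, at chr7:108032840-108032899 of the file's build, read 103%, 32.2%, 148% and 41.2% in NOS3-TG TAC hearts, against 169%, 199%, 7.94% and 151% in NOS3-TG baseline hearts. It read 186%, 42.7%, 138% and 58.4% in WT TAC hearts, against 235%, 122%, 56.8% and 12.5% in WT baseline hearts. The lowest arrays, NOS3-TG baseline replicate 3 and WT baseline replicate 4, were the 2 baseline arrays low for Myl7. The differences were -0.25 ± 1.06 in NOS3-TG and 0.42 ± 1.06 in WT (SE), with 95% intervals of -2.53 to 2.03 and -1.86 to 2.70, so neither a rise nor a fall was resolved.

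Wif1, a secreted protein that binds Wnt ligands directly, had the probe A_51_P484526 at chr10:120496251-120496310 of the file's build. It read 48.3%, 48.2%, 58.7% and 36.0% in NOS3-TG TAC hearts, against 126%, 206%, 55.1% and 117% in NOS3-TG baseline hearts. It read 63.3%, 16.7%, 66.0% and 7.05% in WT TAC hearts, against 133%, 97.1%, 60.8% and 19.0% in WT baseline hearts. In NOS3-TG, 3 of 4 baseline arrays lay above all TAC arrays, whereas the WT groups overlapped more. The 7.05% of WT TAC replicate 4 was the 1 value not well above background. The TAC differences of -1.27 ± 0.67 in NOS3-TG (SE, adjusted p = 0.237) and -1.23 ± 0.67 in WT (SE, adjusted p = 0.188) did not pass.

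Wnt5a, the one ligand of the list, signals mostly without beta-catenin and was at the detection limit. Its probe A_51_P162272, placed by the file at chr14:25948244-25952114, a span longer than the probe, read 1.87% to 3.74% in NOS3-TG TAC, 1.77% to 5.48% in NOS3-TG baseline, 1.29% to 2.43% in WT TAC and 2.39% to 6.78% in WT baseline hearts. It was well above background on 1 array in each NOS3-TG group and on none in WT. No fold is given for Wnt5a, since both WT groups were below background and the bounds between the genotypes were under 1-fold.

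The calls in WT depended on single arrays and on the model. Leaving out 1 array at a time gave 1 to 4 called modulators in WT. The count was 1 without WT TAC replicate 1, 3 or 4 and without WT baseline replicate 2, 3 or 4, it was 2 without WT TAC replicate 2, and it was 4 without NOS3-TG baseline replicate 3, where Sfrp2 joined with an adjusted p of 0.0339. With slide as a random block, Frzb, Sfrp1 and Sfrp5 remained called. With scan day in the fit, which differed for slide 3 of TAC arrays, only Sfrp5 remained called in WT. The Sfrp2 and Frzb differences in NOS3-TG were 0.32 and 0.38 without NOS3-TG baseline replicate 3, and the Wif1 difference in WT was -0.68 without WT TAC replicate 4. The direction of Frzb, Sfrp1 and Sfrp5 in WT held under every alternative and every array left out.

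With log2 Myl7 as a covariate, 3 of 6 modulators were called in NOS3-TG and 5 of 6 in WT, while 11.9% of all genes in NOS3-TG and 29.8% in WT were called. Sfrp2 rose by 1.40 ± 0.31 in NOS3-TG (SE, adjusted p = 0.0142) and by 1.52 ± 0.30 in WT (SE, adjusted p = 0.00323). Frzb rose by 1.25 ± 0.30 in NOS3-TG (adjusted p = 0.0216) and by 1.55 ± 0.29 in WT (adjusted p = 0.00259). Dkk3 rose by 0.94 ± 0.28 in NOS3-TG (adjusted p = 0.0461), with its sign turned from the fit without Myl7, and by 0.91 ± 0.27 in WT (adjusted p = 0.0223). The SE of the Dkk3 difference was thus 0.28 in NOS3-TG and 0.27 in WT, against 1.06 without the covariate. Myl7 was taken up after its values were seen, and its deviations followed those of Dkk3 with r of 0.97 on these same arrays. A smaller SE and added calls come with that likeness, so these calls are not separate evidence of TAC changes. Sfrp1 and Sfrp5 were called in WT and not in NOS3-TG, and Wif1 in neither. The 10 Myl7-high arrays held 2 TAC arrays per genotype, all male, and 3 baseline arrays per genotype of both sexes. TAC and sex are thus partly confounded among them. On these 10 arrays alone, with no sex term, Sfrp1 (1.10, adjusted p = 0.0335) and Frzb (1.31, adjusted p = 0.0405) were called in WT beside 17.8% of all genes. There Wif1 was the called modulator in NOS3-TG (-1.44, adjusted p = 0.0366), beside 10.1% of all genes, and the Dkk3 difference was -0.48 in NOS3-TG and 0.45 in WT. The Dkk3 direction in NOS3-TG therefore turns with how the Myl7 difference is treated. Myl7 itself was not called for TAC, with differences of -3.19 ± 2.76 in NOS3-TG and -1.34 ± 2.76 in WT (SE).

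**Figure D2:**
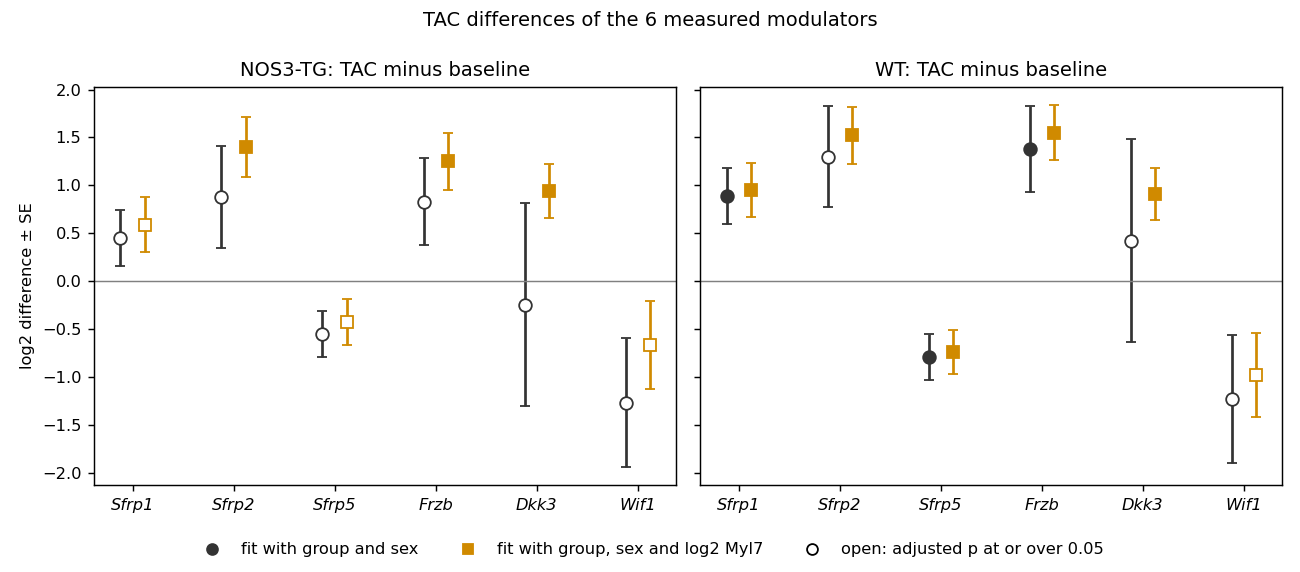
TAC minus baseline log2 differences (± SE) of the 6 measured modulators in NOS3-TG and WT hearts, from the fit with group and sex (circles) and from the fit that adds log2 Myl7 (squares). Filled symbols are called at an adjusted p under 0.05. With Myl7 in the fit the SE of Dkk3 is 0.28 in NOS3-TG and 0.27 in WT, against 1.06 without it, and Sfrp2, Frzb and Dkk3 are then called in both genotypes. Myl7 was taken up after the data were seen and follows Dkk3 closely on these arrays, so a smaller SE is built into that fit.

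No modulator differed between genotypes past the test. After TAC, 0 of 6 were called between NOS3-TG and WT, where 0.281% of all genes were, and at baseline 0 of 6, where 0.415% of all genes were. None of the 6 had an unadjusted p under 0.05 in either, against 12.3% of all genes in each. After TAC the differences ran from -0.47 ± 0.53 for Sfrp2 to 0.83 ± 0.67 for Wif1, and at baseline from -0.18 ± 0.24 for Sfrp5 to 0.87 ± 0.67 for Wif1 (SE). Wif1 was the largest in both and was higher in NOS3-TG within each of the 4 slides, by 0.57 and 1.09 on the TAC slides and by 0.50 and 1.24 on the baseline slides, with 2 arrays of each genotype per slide and no test. Single arrays moved its size, which was 0.28 after TAC without WT TAC replicate 4 and 0.39 at baseline without WT baseline replicate 4. With slide as a fixed block, its adjusted p was 0.584 after TAC and 0.512 at baseline. On the 10 Myl7-high arrays, however, the Wif1 difference after TAC was -0.28 (adjusted p = 0.897). Frzb and Dkk3 were lower in NOS3-TG on both TAC slides and higher on both baseline slides, by 0.04 to 0.63 in size. The interaction of genotype and TAC was -0.54 ± 0.64 for Frzb, -0.44 ± 0.42 for Sfrp1, -0.42 ± 0.76 for Sfrp2, 0.24 ± 0.34 for Sfrp5, -0.66 ± 1.49 for Dkk3 and -0.04 ± 0.94 for Wif1 (SE). None of these was called, nor was any gene of the array (0%), and 7.44% of all genes had an unadjusted p under 0.05 by limma against 0 of the 6. The 95% interval of the Frzb interaction ran from -1.93 to 0.84.

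Males read higher than females for 5 of the 6 modulators, none passing the adjusted test. The fitted differences were 0.77 ± 0.47 for Wif1, 0.69 ± 0.75 for Dkk3, 0.15 ± 0.32 for Frzb and -0.07 ± 0.17 for Sfrp5 (SE). Sfrp1 and Sfrp2 were those with an unadjusted p under 0.05 by limma. Sfrp1 averaged -0.92 ± 0.62 in males and -1.44 ± 0.48 in females on the log2 relative scale (SD, n = 8 each). Sfrp2 averaged 1.15 ± 1.12 in males and 0.26 ± 0.73 in females on that scale (SD, n = 8 each). The fitted male minus female differences were 0.52 ± 0.21 for Sfrp1 (SE, adjusted p = 0.238) and 0.89 ± 0.38 for Sfrp2 (SE, adjusted p = 0.269), and 0 of 6 modulators were called beside 1.33% of all genes. With log2 Myl7 in the fit they were 0.36 ± 0.22 for Sfrp1 and 0.30 ± 0.23 for Sfrp2 (SE). Sex coincided with the position of an array on its slide and, after TAC, with the Myl7 split. With a mean per group and sex, an analysis added after the data were seen, TAC differences averaged over the genotypes were called in males for Sfrp1 (0.99), Sfrp2 (1.60) and Frzb (1.45), beside 25.3% of all genes. In females they were called for Sfrp5 (-0.79) and Wif1 (-1.94), beside 17.3% of all genes. All females after TAC were low for Myl7, whereas among baseline females only WT baseline replicate 4 was low. The TAC differences in females therefore also compare arrays across the Myl7 split. With log2 Myl7 in the fit with group and sex, Wif1 differed by -0.67 in NOS3-TG and by -0.98 in WT, neither called. The part of the Myl7 split in the female differences was not tested. The sex-by-TAC difference itself was called for no modulator and for no gene (0%), with the lowest unadjusted p of the 6 at 0.0913 for Wif1, whose difference was 1.38 ± 0.74 (SE).

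Around their group and sex means, 4 of the 6 modulators varied more than at least 94.4% of genes did. The residual SD was 1.63 for Dkk3, 1.03 for Wif1, 0.82 for Sfrp2, 0.70 for Frzb, 0.45 for Sfrp1 and 0.37 for Sfrp5, against a median of 0.19 over all genes. The deviations of several modulators moved together across the 16 arrays. Pearson's r was 0.91 for Sfrp2 with Dkk3, 0.89 for Frzb with Dkk3, 0.85 for Sfrp2 with Frzb, 0.76 for Dkk3 with Wif1 and 0.72 for Sfrp1 with Frzb. Without the 2 arrays farthest from the middle, for the first named gene of each pair, these were 0.81, 0.80, 0.70, 0.60 and 0.70. Sfrp5 reached at most 0.47, with Frzb. Of 15 pairs these are descriptions over 16 arrays that share their RNA, scaling and fit.

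The deviations from group and sex means also followed Myl7, most closely for Dkk3. Pearson's r with Myl7 was 0.97 for Dkk3, 0.85 for Sfrp2, 0.79 for Frzb, 0.78 for Wif1, 0.42 for Sfrp1 and 0.42 for Sfrp5 over the 16 arrays. Without the 2 arrays farthest in the modulator, r was 0.92 for Dkk3, 0.67 for Sfrp2, 0.57 for Frzb and 0.74 for Wif1. The genes most like each modulator by these deviations were Fmod, Myl7 and Comp for Dkk3 (r of 0.99, 0.97 and 0.97), Comp, Col8a2 and Cyp26a1 for Sfrp2 (0.96 each) and Serpinf1, Anxa8 and Ltbp2 for Frzb (0.99, 0.98 and 0.97). For Sfrp1 they were Itm2c, Skap2 and Cercam (0.93, 0.93 and 0.92), for Wif1 Pmel, Vit and Vegfd (0.90, 0.87 and 0.87) and for Sfrp5 Pnmt, Rnps1 and Myh10 (0.85, 0.84 and 0.83). The Fmod probe, for example, read 142%, 28.3%, 145% and 50.4% in NOS3-TG TAC hearts, against 96.2%, 99.1%, 4.94% and 68.2% in NOS3-TG baseline hearts, low on the same arrays as Dkk3. The whole summed level of adipocyte markers, in multiples of the 75th percentile, also moved with several modulators. Its r was 0.92 for Dkk3, 0.90 for Sfrp2, 0.83 for Frzb, 0.72 for Wif1, 0.60 for Sfrp1 and 0.18 for Sfrp5. Without the 2 arrays farthest in the modulator, these were 0.78, 0.78, 0.67, 0.67, 0.58 and 0.42. The 6 measured adipocyte markers summed to 0.565 to 3.94 in NOS3-TG TAC and 0.272 to 6.06 in NOS3-TG baseline hearts. They summed to 0.449 to 1.16 in WT TAC and 0.718 to 8.59 in WT baseline hearts. Plin1 was well above background on 9 arrays, Retn on 7 and Lep on none.

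**Figure D3:**
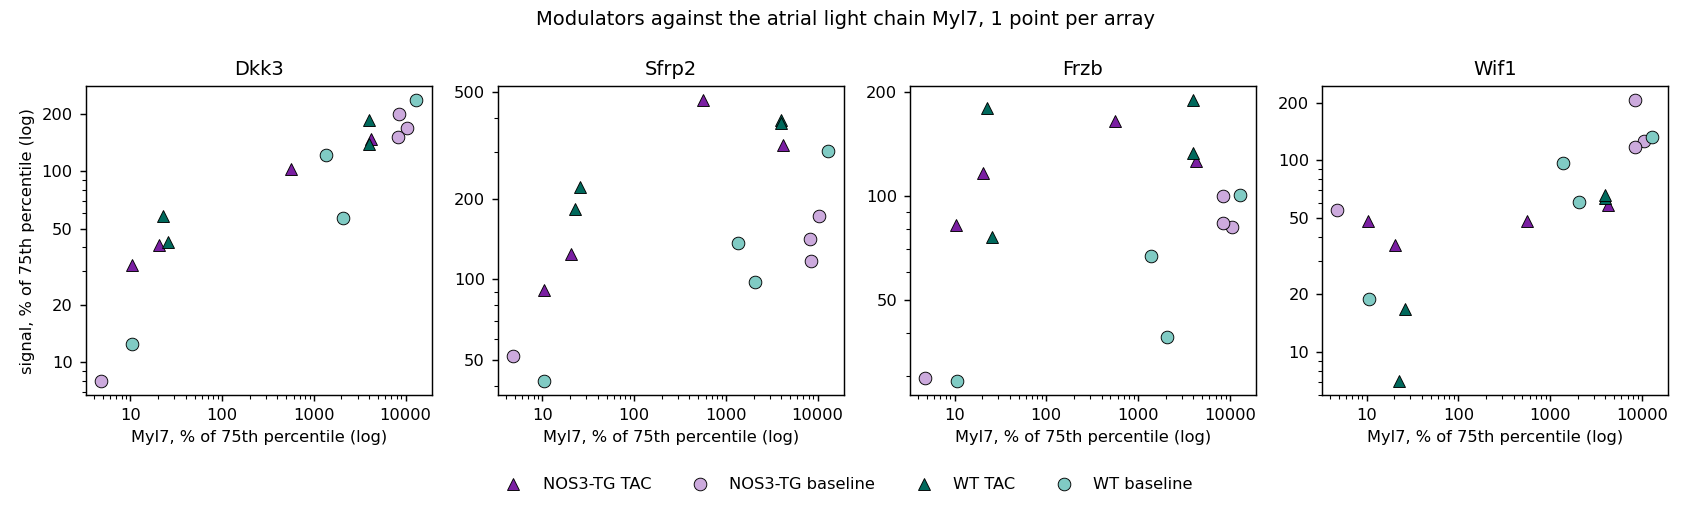
Relative signal of Dkk3, Sfrp2, Frzb and Wif1 against that of Myl7, both as % of the array's 75th percentile on log axes, 1 point per array. The 6 arrays with Myl7 at or below 25.9% hold the lowest Dkk3 values of each group, and on either side of the Myl7 gap the TAC points (triangles) of Sfrp2 lie above the baseline points (circles).

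The rest of the pathway was followed in 5 lists. Over all genes, 6.46% were called higher and 5.34% lower after TAC in NOS3-TG, and 10.9% higher and 17.6% lower in WT. Among ligands other than Wnt5a, 8 of 18 were measured and none was called after TAC in either genotype. Of 15 other secreted agonists and antagonists, 7 were measured and 1 was called. That gene, Notum, an enzyme that strips the lipid from Wnt proteins, fell by 0.66 ± 0.18 in NOS3-TG (SE, adjusted p = 0.0352), and its difference in WT was -0.37.

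Receptors and coreceptors had 1 higher and 3 lower in NOS3-TG and 1 higher and 4 lower in WT, of 23 measured. Kremen1, a receptor that pairs with Dickkopf proteins to remove LRP6, read 60.4%, 50.3%, 59.0% and 54.9% in NOS3-TG TAC hearts, against 29.0%, 25.1%, 29.8% and 28.4% in NOS3-TG baseline hearts. In WT it read 61.2%, 42.5%, 63.9% and 54.9% after TAC, against 25.2%, 25.9%, 30.3% and 26.6% at baseline. The groups did not overlap in either genotype, with TAC higher, as held for 9.09% of all genes in NOS3-TG and 10.2% in WT. Kremen1 rose by 1.00 ± 0.10 in NOS3-TG (adjusted p = 0.000115) and by 1.03 ± 0.10 in WT (adjusted p = 6.65e-05). Lgr6, a receptor for the Wnt-enhancing R-spondins, fell by 1.05 ± 0.20 in NOS3-TG (adjusted p = 0.00674) and by 1.42 ± 0.20 in WT (adjusted p = 0.000539). It read 14.0% to 20.9% in NOS3-TG TAC against 23.6% to 43.2% in NOS3-TG baseline hearts, and 14.1% to 23.2% in WT TAC against 43.9% to 51.8% in WT baseline hearts, with no overlap and TAC lower, as held for 7.43% of all genes in NOS3-TG and 17.2% in WT. Smaller falls were called for the receptor Fzd4 in NOS3-TG (-0.43), for the receptors Fzd9 (-0.60) and Fzd5 (-0.41) in WT, and for Porcn, the enzyme that attaches the lipid to Wnt proteins, in both (-0.39 in NOS3-TG and -0.34 in WT).

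Of 29 measured intracellular components, 1 was higher and 2 lower in NOS3-TG, and 3 were higher and 4 lower in WT. The co-repressor Tle2 fell by 0.68 ± 0.13 in NOS3-TG and by 0.91 ± 0.13 in WT (SE), and the kinase Csnk1e by 0.42 in NOS3-TG and by 0.48 in WT. Ctnnbip1, an inhibitor that keeps beta-catenin from TCF factors, rose by 0.42 ± 0.07 in NOS3-TG and by 0.36 ± 0.07 in WT (SE). In WT, Celsr2 (-1.27) and Prickle1 (-0.48), both of planar cell polarity, were also called lower, and the co-repressor Tle3 (0.39) higher. The NOS3-TG difference of Celsr2 was -1.09 and was not called. Beta-catenin itself, Ctnnb1, was called in WT at 0.17 ± 0.06 (SE, adjusted p = 0.0435).

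Of 15 measured genes listed as Wnt targets, 3 were higher and 1, again Notum, lower in NOS3-TG, and 6 were higher and none lower in WT. Their median difference was 0.07 in NOS3-TG and 0.47 in WT. Axin2, a feedback inhibitor widely used as a readout of beta-catenin signalling, rose by 0.97 ± 0.31 in WT (SE, adjusted p = 0.0347). It read 11.4%, 12.1%, 14.2% and 11.2% in WT TAC hearts, against 8.52%, 3.07%, 7.23% and 7.88% in WT baseline hearts. These did not overlap, with TAC higher, as held for 10.2% of all genes in WT. The 3.07% was not well above background, and without that array, WT baseline replicate 2, the difference was 0.60 (adjusted p = 0.0753). In NOS3-TG it read 8.70%, 16.2%, 12.6% and 17.6% after TAC, against 9.94%, 7.78%, 6.00% and 10.4% at baseline, a difference of 0.67 that was not called, with 2 of the baseline arrays not well above background. Ccn5, a secreted matricellular protein, rose by 1.50 ± 0.37 in NOS3-TG and by 1.95 ± 0.37 in WT (SE). The adhesion receptor Cd44 rose by 1.01 ± 0.18 in NOS3-TG and by 1.81 ± 0.18 in WT (SE). Nkd2, an inhibitor of the Wnt transducer Dishevelled, rose by 1.25 ± 0.35 in NOS3-TG and by 1.78 ± 0.35 in WT (SE). Myc (0.79) and Ccnd1, or cyclin D1 (0.68), were called in WT. Many of these genes have inducers other than Wnt. With any 1 array left out, Kremen1, Lgr6, Tle2, Ctnnbip1 and Cd44 stayed called in both genotypes, and Csnk1e, Ccn5 and Nkd2 in WT, while each other pathway call was lost without at least 1 array. Of the 16 arrays left out in turn, 14 cost the Fzd4 call in NOS3-TG and 12 the Ctnnb1 call in WT. The Porcn call was lost without any of 12 arrays in NOS3-TG and 13 in WT, and the Axin2 call in WT without any of 6. Between genotypes, in the interaction and between sexes, 1 pathway gene was called, Ccn5, higher in males by 1.29 ± 0.26 (SE, adjusted p = 0.0359). Over all genes, 1.33% were called between sexes, 0.281% between genotypes after TAC, 0.415% at baseline and 0% in the interaction. The Ccn5 call was lost without any of 11 of the 16 arrays. After TAC, sex coincided with the Myl7 split, so sex and that split cannot be told apart there for Ccn5.

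**Figure D4:**
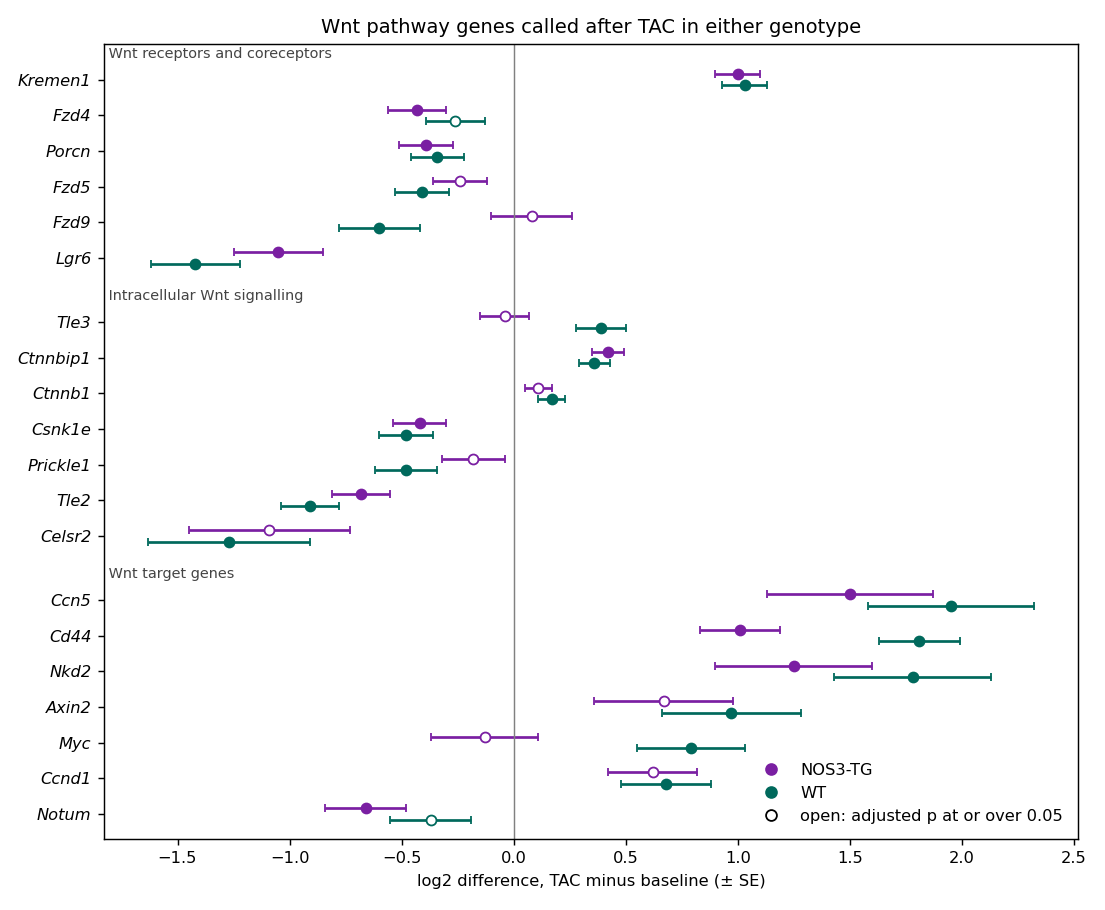
TAC minus baseline log2 differences (± SE) of the receptors, intracellular components and listed targets that were called in at least 1 genotype, with NOS3-TG above WT in each row. Filled points are called. Kremen1 lies near 1.00 and Lgr6 below -1 in both genotypes, and Ccn5, Cd44 and Nkd2 are the largest rises.

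Markers of activated fibroblasts, chosen as known genes of pressure-loaded hearts, were compared in the same way. The list also holds Comp and Ltbp2, named above. Of 13 measured, 6 were higher in NOS3-TG after TAC and 11 in WT, none lower. Their summed level was 208 to 317 multiples of the 75th percentile in NOS3-TG TAC against 66.4 to 123 in NOS3-TG baseline hearts, and 159 to 382 in WT TAC against 75.9 to 114 in WT baseline hearts. None was at background on all arrays, and Postn, or periostin, rose by 1.67 ± 0.48 in NOS3-TG and by 2.46 ± 0.48 in WT (SE). The deviation of Frzb from group and sex means followed the deviation of this sum with r of 0.89 over the 16 arrays, and that of Sfrp1 with 0.74. It was 0.68 for Dkk3, 0.57 for Sfrp2, 0.55 for Sfrp5 and 0.43 for Wif1. Frzb was about as close to other sums, with r of 0.88 for general fibroblast, 0.83 for adipocyte and 0.82 for valve and endocardial markers. General fibroblast markers had 3 higher and 1 lower in NOS3-TG and 6 higher and 1 lower in WT, of 18 measured, and summed to 491 to 563 in NOS3-TG TAC, 456 to 531 in NOS3-TG baseline, 529 to 619 in WT TAC and 481 to 568 in WT baseline hearts. The part of fibroblast content in the TAC differences of the modulators was not tested. For both fibroblast lists above and the lists that follow, the shares over all genes were those given for the pathway lists. They were 6.46% higher and 5.34% lower in NOS3-TG, and 10.9% higher and 17.6% lower in WT. Macrophage markers had 2 higher in NOS3-TG and 6 higher in WT of 10, and endothelial markers 1 higher in NOS3-TG and 4 higher in WT of 10. Smooth muscle and pericyte markers had 1 higher and 2 lower in NOS3-TG and 1 higher and 3 lower in WT of 10. Adipocyte markers had none called in NOS3-TG and 3 lower in WT of 6. Cardiomyocyte markers had none called in NOS3-TG and 1 higher and 3 lower in WT of 15. Epicardial and mesothelial markers had none called in NOS3-TG and 1 higher in WT of 6, and Krt19, Lrrn4, Bnc1 and Dmkn were well above background on no array. Valve and endocardial markers had 1 higher in NOS3-TG and none called in WT of 5.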

How the data were processed

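Each array file the authors deposited holds spot intensity, written by the scanner software Agilent Feature Extraction (version 9.5.1.1). Its processed signal had local background subtracted and no normalization between arrays, per the file headers. A table of log2 values was likewise deposited by the authors. How it was normalized is not given in the sources used, and it served as an alternative. Control and outlier spots were left out and spots of a probe averaged. Log2 signals, scaled by subtracting the 75th percentile of their array, were fitted with limma 3.58.1 in R 4.3.3 (4 group means and sex, all 16 arrays, two-sided eBayes tests, Benjamini-Hochberg adjustment over 15667 genes). Genes with several probes were represented by the brightest on average. With 11 residual degrees of freedom, the number of arrays limits the precision. On simulated data for TAC against baseline in WT, with 15508 genes, 72.0% of genes changed by 1 log2 unit and 95.0% of those changed by 2 were called. The changed genes were drawn at random from all genes, with noise independent between genes. The modulators had residual SDs of 0.37 to 1.63, against a median of 0.19 over all genes, so these shares do not apply to them. Every probe of each modulator was named. Pathway genes were named where called, up to 4 per list and comparison by size, and for likeness the 3 genes of highest r (others named fill a count). The modulators and gene lists were chosen with earlier results of these data known. Replicate numbers follow no label and pair no arrays. Per the labels, arrays of a group are biological repeats. Files were read with the R package data.table (version 1.17.8), and plots made in Python 3.11.15 by matplotlib 3.10.9. Alternatives covered background correction, normalization, the filter, the choice of probe, the model, slide, scan day and single arrays. Fits using Myl7 and the fit of a mean per group and sex were added after the data were seen.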

Additional observations from a re-analysis of the deposited data

Results flagged for a closer look

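Among 36 sets of 4 arrays (9 probes in 4 groups), 4 held an array whose gap to its nearest neighbour took a larger share of the group's range than Dixon's 95% critical value, and chance alone gives about 1 in 20. Dkk3 was lowest on NOS3-TG baseline replicate 3, at 7.94% of the 75th percentile, with a gap of 0.915 of the range. Frzb was lowest on the same array, at 29.7%, with a gap of 0.830. Sfrp1 (A_51_P352296) was lowest on WT TAC replicate 2, at 34.8%, with a gap of 0.841, and highest on WT baseline replicate 1, at 48.3%, with a gap of 0.834. Myl7 read 4.81% on NOS3-TG baseline replicate 3, against 8342% to 10462% on the other arrays of its group.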

How the results depend on the processing

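The modulators called for TAC in WT numbered 3, and numbered 1 with normexp, with scan day as a block and without the 3 arrays of extreme shares above background (NOS3-TG TAC replicates 3 and 4, NOS3-TG baseline replicate 2). The count was 0 without the filter on dim probes, where 27670 genes were tested, 0 with the compared groups alone and 0 on the 6 Myl7-low arrays, where single baseline arrays were assumed to vary like the other groups. It was 5 with log2 Myl7 as a covariate, and 1 to 4 with 1 array left out. All counts with Myl7 were added after the data were seen. The count for TAC in NOS3-TG, 0, was 3 with log2 Myl7 and 1 on the 10 Myl7-high arrays, and 0 with any 1 array left out. The causes were not tested. The counts of 0 for genotype, interaction and sex did not move under any alternative run.

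The differences whose sign turned were not called in the fit with group and sex. With normexp, Sfrp5 was -0.44 for genotype after TAC, -0.33 for the interaction and 0.04 for sex, and Sfrp1 was -0.01 for genotype at baseline. With array weights, Sfrp5 was -0.01 for genotype after TAC, Sfrp2 0.30 for genotype at baseline and Frzb -0.03 for sex. Without the 3 arrays, Dkk3 was 0.12 for TAC in NOS3-TG and -0.34 for genotype at baseline, Sfrp5 -0.16 for genotype after TAC and -0.02 for the interaction, and Wif1 0.45 for the interaction. With log2 Myl7, Dkk3 was 0.94 for TAC in NOS3-TG, -0.05 for genotype at baseline, 0.02 for the interaction and -0.63 for sex, Wif1 0.31 for the interaction and Frzb -0.31 for sex. On the Myl7-high arrays, Sfrp5 was -0.37 and Wif1 -0.28 for genotype after TAC, and Sfrp2 0.16 and Sfrp5 -0.28 for the interaction. On the Myl7-low arrays, Dkk3 was 2.20 for TAC in NOS3-TG, Sfrp1 -0.10, Sfrp2 0.32 and Dkk3 -0.65 for genotype at baseline, and Dkk3 0.20 and Wif1 0.41 for the interaction. With 1 array left out, Dkk3 ran from -1.58 to 0.36 for TAC in NOS3-TG, from -0.34 to 0.95 for TAC in WT, from -0.51 to 1.58 for genotype at baseline and from -2.00 to 0.09 for the interaction. Sfrp5 ran from -0.22 to 0.24 for genotype after TAC, from -0.04 to 0.42 for the interaction and from -0.21 to 0.02 for sex. Sfrp1 ran from -0.06 to 0.28 and Sfrp2 from -0.41 to 0.51 for genotype at baseline, Wif1 from -0.59 to 0.44 for the interaction and Frzb from -0.00 to 0.38 for sex.

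Over the alternatives other than arrays left out, the WT TAC difference ran from 0.69 to 1.10 for Sfrp1 (adjusted p of 0.0118 to 0.526), from 1.15 to 2.01 for Frzb (0.00259 to 0.361) and from -1.06 to -0.23 for Sfrp5 (0.00978 to 0.586). All-gene calls for TAC in NOS3-TG, 1849, numbered 1032 with normexp, 754 without the filter, 1186 with the compared groups alone, 756 with scan day, 3129 with array weights, 401 without the 3 arrays, 0 on the Myl7-low arrays and 971 to 2258 with 1 array left out. Those for TAC in WT, 4457, numbered 2959 with normexp, 2872 without the filter, 2694 with scan day, 2791 on the Myl7-high arrays, 0 on the Myl7-low arrays and 2911 to 5026 with 1 array left out. Those for genotype ran from 1 to 91 after TAC (44) and from 2 to 290 at baseline (65), and those for sex (208) from 24 to 687. No analysis of paired single arrays was run, since the labels pair none. Slide, which held both genotypes, served as a fixed block for genotype instead, and 0 modulators were called there. Signal over background limits Sfrp4, Sfrp5 and Wnt5a. The within-slide correlation of residuals was 0.0602.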

Other observations

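Beyond the modulators, Fmod and Comp, both proteins of the extracellular matrix, did not pass the TAC test. Fmod differed by 0.80 ± 1.02 in NOS3-TG and by 1.45 ± 1.02 in WT (SE), and Comp by 0.63 ± 1.02 in NOS3-TG and by 1.68 ± 1.02 in WT (SE). Cytl1, a listed valve and endocardial marker, read 90.5% to 158% in NOS3-TG TAC against 78.3% to 424% in NOS3-TG baseline hearts, and 80.3% to 341% in WT TAC against 166% to 511% in WT baseline hearts.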
